A study of Homo sapiens with 18 samples.

Results

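Translational efficiency was compared between MDA-MB-231 cells carrying the hairpin labelled SH3 and cells carrying the scramble control. MDA-MB-231 is an established human line of triple-negative breast carcinoma. Translational efficiency (TE) is the amount of ribosome footprints of a gene relative to its RNA. The members were all libraries labelled SC or SH3, which are 12 of the 18 libraries of the series. They fall into SC input RNA, SH3 input RNA, SC footprints and SH3 footprints, with 3 replicates in each group. SC was read as the scramble control. SH3 is a hairpin against the mRNA of fibrillarin, and the labels do not say whether it is knockdown 1 or knockdown 2 of the protocols. Both treatments shared the lentiviral pLKO.1 vector, puromycin selection and a short exposure to cycloheximide before lysis. Each treatment is a pool of transduced cells with 1 hairpin construct. Input RNA (IN) was cytoplasmic RNA kept from the lysate, and footprints (RPF) were the fragments left in monosomes after digestion with RNase I. Nothing in the labels says that replicates came from separate cultures, so p-values measure the spread between these samples, which may be technical.

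Fibrillarin (FBL) is the catalytic subunit of box C/D particles of the nucleolus, in which a small guide RNA directs methylation of the ribose of ribosomal RNA. A gene's output can change in RNA level, in the number of ribosomes per RNA, or in both. A change is called buffered when footprints follow a move of RNA less far or not at all. It is called opposed when footprints and RNA move in opposite directions. A class of mRNAs for ribosomal proteins and translation factors begins with a C and a run of pyrimidines (a terminal oligopyrimidine tract, TOP), and binding of LARP1 to this start is known to couple their translation to mTORC1.

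IN libraries of these groups held 23469830 to 26541640 counts. The SC RPF libraries held 6098648, 2486598 and 5787585 counts and the SH3 RPF libraries 1662705, 2862198 and 2739747, so footprints limited the precision. Of 8 markers of the line, 7 were at 1 CPM (a count scaled to library size) or more in IN, with SPARC under it. EGFR RNA was higher in SH3, at 581 to 646 CPM against 174 to 225 CPM in SC. CAV1 RNA was lower in SH3, at 65.1 to 80.4 CPM against 131 to 180 CPM in SC. ZEB1 RNA was lower too, at 95.8 to 98.8 CPM against 135 to 146 CPM, as was SPARC. VIM, CD44, AXL and MSN overlapped. Luminal breast markers summed to 1082 to 1196 CPM in SC and 1219 to 1398 CPM in SH3, mostly KRT8 and KRT18, with 6 of 10 at 1 CPM or more on average and ESR1 and PGR at or near 0. Endothelial markers summed to 6.41 to 8.57 CPM in SC and 10.00 to 10.9 CPM in SH3, with 2 of 4 at 1 CPM or more, and leukocyte markers to 3.78 to 4.94 CPM and 2.91 to 3.52 CPM, with 1 of 5. None of these sums overlapped between groups except that of the line, at 7356 to 9265 CPM in SC and 7021 to 8063 CPM in SH3. RNA of 53.0% of all genes tested differed at an edgeR adjusted p under 0.05. Of the luminal markers KRT18 was higher in SH3, at 630 to 717 CPM against 469 to 519 CPM in SC, as was EPCAM. FOXA1 and CDH1 were lower, and KRT8, ERBB2, GATA3 and TFF1 overlapped. Among endothelial markers KDR was higher in SH3, at 8.35 to 8.68 CPM against 3.62 to 5.35 CPM in SC, while PECAM1 and VWF were lower. Among leukocyte markers PTPRC was lower in SH3 and CD14 overlapped. The part of these markers in the results was not tested. FBL RNA stood at 395, 349 and 421 CPM in the SC libraries and at 3.36, 4.15 and 2.95 CPM in SH3. FBL footprints stood at 279.7, 269 and 296 CPM in SC and at 4.10, 5.48 and 8.06 CPM in SH3, from 7, 16 and 23 counts. The groups did not overlap in either measure. The TE change of FBL on the log2 scale was 1.29 (SE 0.87, edgeR adjusted p 0.597) and was not called.

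The starts of 12 mRNAs are shown first, because the genes that gained TE held many TOP mRNAs and because exceptions stood on both sides. Each window runs from 10 bases before the annotated start to 20 bases from it on, on the transcribed strand. The sequences are from RefSeq (GRCh38.p14). Capitals mark a C followed by at least 4 further pyrimidines that begins within 5 bases of the annotated start.
TPT1: ctgagtcggCCTTTTCCgcccgctcccccc
NOP53: tggctgagttCTTCCTTTgacaagatggcg
EIF4B: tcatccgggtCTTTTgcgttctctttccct
RPLP0: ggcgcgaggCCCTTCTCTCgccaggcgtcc
RPS27: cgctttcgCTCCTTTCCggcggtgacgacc
CDKN2C: tctgccgagCCTCCTTaaaactctgccgtt
YBX1: ctgtcccgccattctcgctagttcgatcgg
UCP2: gcggagccccactgcgaagcccagctgcgc
CCNI: ctctcttCCCCTCCCTCCCCagccttcccc
DNAH14: gtggctcttggtcaggcggttacggccagg
SRM: ggcgggcggagctggtcccgttgtgctgcg
PPIA: ggctcgtgccgttttgcagacgccaccgcc

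The first 8 of these mRNAs gained TE and the other 4 lost it. The windows lie on the plus strand at chr19:47745536-47745565 (NOP53), chr12:53006446-53006475 (EIF4B), chr1:153990752-153990781 (RPS27), chr1:50968696-50968725 (CDKN2C), chr1:42682408-42682437 (YBX1), chr1:224929665-224929694 (DNAH14) and chr7:44796671-44796700 (PPIA). On the minus strand they lie at chr13:45341164-45341193 (TPT1), chr12:120201092-120201121 (RPLP0), chr11:73982824-73982853 (UCP2), chr4:77075970-77075999 (CCNI) and chr1:11059999-11060028 (SRM). YBX1 and UCP2 gained TE with no such run at this start, and CCNI lost TE with a run of 13 bases. The ribosomal proteins RPL15, RPL6 and RPS4X, not shown, also gained TE with no such run at the annotated start. Where a gene had several annotated starts, the one with the longest run was used. Such a run lay near the start of 22 of 41 genes with higher TE that had a start sequence (53.7%), of 8 of 31 with lower TE (25.8%) and of 3027 of all 10189 tested genes with one (29.7%). Without the ribosomal proteins, 10 of 26 genes with higher TE had a run (38.5%). With the C exactly at the annotated start, the shares were 34.1% of those with higher TE, 6.45% of those with lower TE and 7.22% of all. Among those with higher TE outside the ribosomal proteins this share was 19.2% (5 of 26). These shares describe letters at annotated starts, and which starts the cells used was not tested.

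The comparison asks which mRNAs held more or fewer footprints per RNA, relative to the other mRNAs, after loss of fibrillarin. The scaling of libraries takes out a change shared by all mRNAs. Of 12531 genes tested, 86 were called at an adjusted p-value under 0.05 (0.686%), of which 47 had higher TE in SH3 (0.375%) and 39 lower TE (0.311%), in edgeR's quasi-likelihood test of the interaction. The spread between replicates was estimated over all 18 libraries, those of SH2 included. With only the SC and SH3 libraries 46 genes were called, 45 of them among the 86. Without adjustment, 668 genes (5.33%) were higher and 906 (7.23%) lower at p under 0.05. The median TE change of all genes was -0.0444 on the log2 scale, and that of the called genes was 0.90 for those higher and -0.93 for those lower. Genes with higher TE rested on more footprints, with a median of 635 counts per library, against 168 for those with lower TE and 81.2 over all genes tested. RNA was called in 6732 of 12710 genes (53.0%) and footprints in 3719 of 10345 (35.9%). All 86 genes kept their direction in every alternative that gave a value, 85 of them in the one that asked for a mean of 10 counts or more. The genes were chosen for their TE changes in these same libraries, so a kept direction was nearly given in advance.

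The number called changed when a replicate was left out. Each of these fits left out both the IN and the RPF library of that number, and fewer replicates also give less power. Same-numbered IN and RPF libraries may come from different lysates, so such a fit may leave a library without its partner. Without SC replicate 3 it was 10, namely RPL19, EIF4B, YBX1, TPT1, RPS4X, CCNI, CCNG2, DNAH14, CAMK2N1 and WDR45B. Without SH3 replicate 2 it was 11, which were 8 of those (all but CCNG2 and CAMK2N1) with UCP2, NOP53 and RPL23A. Without SH3 replicate 1 it was 18, without SH3 replicate 3 it was 31 and without SC replicate 1 it rose to 244. Between SC IN libraries, chi-square per degree of freedom was 56.3 for replicates 1 and 2 and 49.1 for 1 and 3. It was 11.5 for replicates 2 and 3. The part of this spread in the number called was not tested. RPL19, EIF4B, YBX1, TPT1, RPS4X, CCNI, DNAH14 and WDR45B kept their calls in all 15 alternatives, and UCP2, NOP53 and RPL23A lost theirs in 1, at an edgeR adjusted p of 0.0505 without SC replicate 3. Every other call described below was lost in at least 1 of the fits that left out a replicate.

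Each gene tested in RNA, footprints and TE was then placed by its calls. Buffered genes had RNA called, TE called the opposite way, and footprints not called or called the way of RNA. Opposed genes had RNA and footprints called in opposite directions. Footprints that were not called need not have kept their level. Of the 10335 genes so placed, 30 were buffered, 14 opposed, 28 changed in footprints with no RNA call and 15 were intensified. Intensified means that footprints moved further than RNA in the same direction. A further 3074 had RNA and footprints called the same way with no TE call, 2623 had a call in RNA alone, 584 had one in footprints alone, and 3967 had none. RNA and TE estimates use the same IN counts with opposite sign, so chance in IN alone moves a gene toward the buffered class. Of the 47 genes with higher TE, 19 were buffered, 8 opposed, 13 changed in footprints alone and 7 were intensified. The 39 with lower TE comprised 11 buffered, 4 opposed, 15 in footprints alone and 8 intensified, and COL5A2 was not tested in footprints. COL5A2, a fibrillar collagen chain, had the lowest TE value of the called genes, -2.61 (SE 0.56, edgeR adjusted p 0.0335), on 10, 5 and 7 footprint counts in SC and 1, 2 and 2 in SH3.

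**Figure D1:**
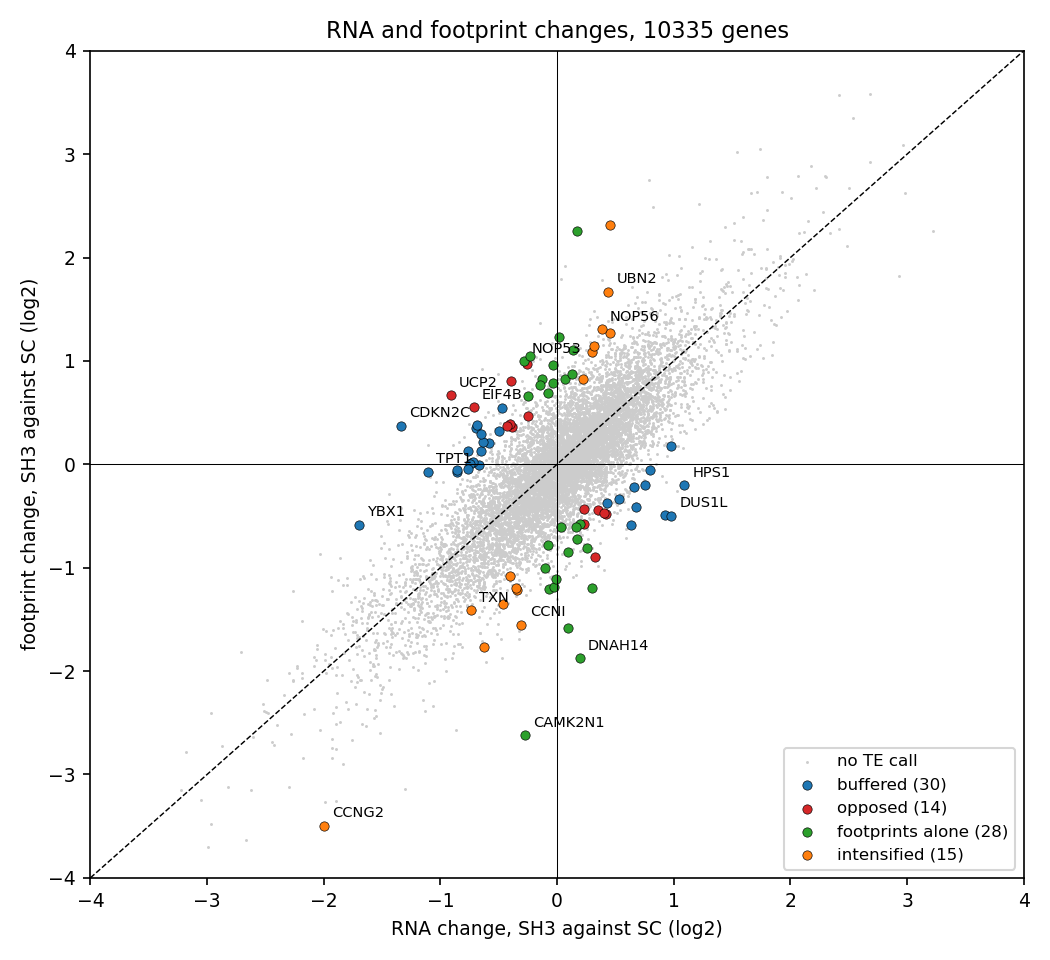
RNA change (horizontal axis, log2) against footprint change (vertical axis, log2), SH3 against SC, for the 10335 genes tested in all 3 fits, of which 3 lie outside the axes. The dashed line marks equal changes. Footprint changes of the 30 buffered genes run from -0.59 (YBX1) to 0.54 (INO80D), and the 14 opposed genes lie in the upper left and lower right.

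**Figure D2:**
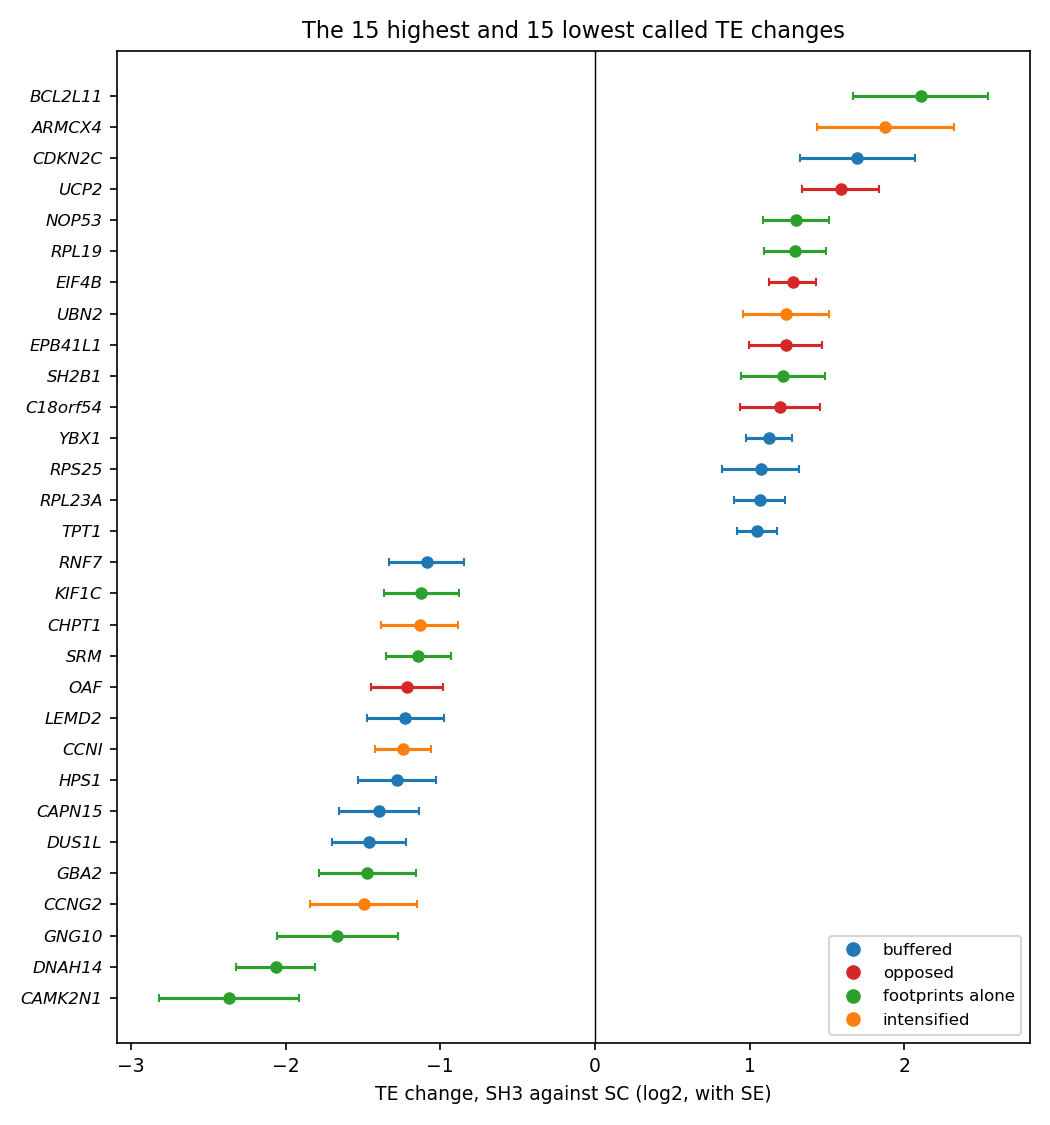
TE changes of the 15 genes with the highest and the 15 with the lowest values among called genes with a mean of 10 or more footprint counts per library (log2, SH3 against SC, horizontal axis; bars are SE), coloured by class. Values run from -2.37 for CAMK2N1 to 2.11 for BCL2L11, and the genes nearest 0 lie at 1.05 (TPT1) and -1.09 (RNF7).

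Buffered genes with higher TE were mostly ribosomal proteins, 15 of 19, and the others were YBX1, TPT1, CDKN2C and INO80D, the last named after its values were seen. Their RNA fell by a median of 0.72 on the log2 scale while footprints had a median change of 0.13. TPT1, the translationally controlled tumour protein and a classical TOP mRNA, had RNA at 1395, 1250.1 and 1449 CPM in SC and 645, 635 and 619 CPM in SH3. Its footprints stood at 697, 693 and 715 CPM in SC and 686, 633 and 685 CPM in SH3. RNA lay lower in every SH3 library by a wide gap, and footprints lay slightly lower in every one. The RNA fold was 0.464 and the footprint fold 0.952, and TE rose by 1.05 (SE 0.13, edgeR adjusted p 0.000302).

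YBX1, a cold-shock domain protein that binds mRNA and DNA, was the buffered gene whose footprints were also called. YBX1 RNA stood at 1576, 1417 and 1554 CPM in SC and 470.1, 478 and 455 CPM in SH3, and footprints at 773, 779.8 and 932 CPM in SC and 501, 583 and 571 CPM in SH3. Both measures fell in every SH3 library, RNA to 0.308 of the SC mean and footprints to 0.666 of it. TE rose by 1.12 (SE 0.15, edgeR adjusted p 0.000556). CDKN2C, an inhibitor of the cyclin-dependent kinases CDK4 and CDK6, had RNA at 17.9, 30.6 and 28.6 CPM in SC and 9.60, 9.44 and 11.5 CPM in SH3. Its footprints overlapped, at 8.77, 2.95 and 7.81 CPM in SC and 7.02, 9.59 and 10.2 CPM in SH3, the lowest from 7 counts. TE rose by 1.70 (SE 0.37, edgeR adjusted p 0.0349), and the call was lost in 7 of 15 alternatives, with adjusted p-values up to 0.306.

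Among buffered ribosomal proteins, RPS4X RNA stood at 778, 777 and 877 CPM in SC and 492, 547 and 512 CPM in SH3, and its footprints at 871, 819 and 846 CPM in SC and 1043, 1059 and 1007 CPM in SH3. RNA was lower and footprints were higher in every SH3 library, though the footprint change was not called (edgeR adjusted p 0.0606). TE rose by 0.95 (SE 0.14, edgeR adjusted p 0.00160). RPL23A followed the same order, with RNA at 894, 832 and 949 CPM in SC against 540.0, 579.8 and 529.7 CPM in SH3, footprints at 743, 803 and 715 CPM against 899.8, 1133 and 851 CPM, and a TE change of 1.06 (SE 0.17, edgeR adjusted p 0.00297). RPL37 RNA fell from 770.4, 756 and 847 CPM to 428, 453 and 429 CPM, while its footprints overlapped at 1002, 1079 and 1067 CPM in SC and 940.2, 1052 and 987 CPM in SH3. RPS25 had the most uneven footprints of the set, at 1712, 1202 and 916 CPM in SC and 1897, 1905 and 1177 CPM in SH3. Its TE change of 1.07 (SE 0.25, edgeR adjusted p 0.0492) was lost in 6 of 15 alternatives, with adjusted p-values up to 0.334.

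The 11 buffered genes with lower TE had higher RNA, by a median of 0.75 on the log2 scale, and footprints that did not follow, with a median of -0.34. DUS1L, a tRNA dihydrouridine synthase, had RNA at 132, 79.2 and 102 CPM in SC and 197, 221 and 199.6 CPM in SH3. Its footprints stood at 19.5, 21.1 and 19.4 CPM in SC and 12.3, 13.7 and 15.8 CPM in SH3, from 21, 40 and 45 counts. RNA lay higher and footprints lower in every SH3 library. TE fell by 1.46 on the log2 scale (SE 0.24, edgeR adjusted p 0.00508), with the call lost without SC replicate 3 and without SH3 replicate 2 (adjusted p-values up to 0.0909). HPS1, a subunit of the BLOC-3 complex of lysosome-related organelles, had RNA at 25.3, 27.1 and 28.3 CPM in SC and 58.4, 54.4 and 58.4 CPM in SH3. HPS1 footprints were slightly lower in every SH3 library without a call, at 11.04, 10.95 and 11.2 CPM in SC and 9.95, 9.24 and 9.82 CPM in SH3, and TE changed by -1.28 (SE 0.25, edgeR adjusted p 0.0165).

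AP3D1, the delta subunit of the AP-3 adaptor of endosomes and named after its values were seen, had RNA at 157, 192 and 168 CPM in SC and 334, 338 and 342 CPM in SH3, with footprints at 134, 110.0 and 122 CPM and 139, 138 and 140.2 CPM. AP3D1 footprints were slightly higher in every SH3 library, but by far less than RNA, and TE changed by -0.78 (SE 0.15, edgeR adjusted p 0.0140). TBC1D9B RNA stood at 238, 244 and 265 CPM in SC and 389, 388 and 402 CPM in SH3, and its TE changed by -0.87 (SE 0.16, edgeR adjusted p 0.0122). CAPN15 (-1.40), LEMD2, a protein of the inner nuclear membrane (-1.23), and RNF7, a RING subunit of cullin ligases (-1.09), completed the buffered genes at the lower end.

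Opposed genes with higher TE had lower RNA and higher footprints. They were EIF4B, UCP2, EPB41L1, C18orf54, EIF3L, RPL6, RPLP0 and RPL10A, the last named after its values were seen. EIF4B, an initiation factor that stimulates the helicase eIF4A, had RNA at 585, 508 and 591 CPM in SC and 331, 359 and 336 CPM in SH3. EIF4B footprints stood at 379, 361 and 370.0 CPM in SC and 492, 625 and 509.7 CPM in SH3. RNA fell to 0.609 of the SC mean and footprints rose to 1.46 of it, with no overlap in either. The footprint-to-RNA ratio of the group means went from 0.660 to 1.59, and TE rose by 1.28 (SE 0.15, edgeR adjusted p 0.000302).

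UCP2, a carrier of the mitochondrial inner membrane, had RNA at 38.9, 43.8 and 48.6 CPM in SC and 20.2, 24.6 and 25.1 CPM in SH3. UCP2 footprints stood at 7.96, 7.16 and 7.10 CPM in SC and 11.1, 11.6 and 12.6 CPM in SH3, from 19 to 36 counts in SH3. Its libraries did not overlap in RNA or in footprints, and TE rose by 1.59 (SE 0.25, edgeR adjusted p 0.00297). EIF3L, a subunit of initiation factor eIF3, had RNA at 173, 188 and 188 CPM in SC and 141, 138 and 140.0 CPM in SH3, and footprints at 142, 161 and 152 CPM and 214, 175 and 196 CPM. RPLP0, the stalk protein of the large subunit, had RNA at 6756, 5649 and 6958 CPM in SC and 4418, 5141 and 4804 CPM in SH3, and footprints at 714, 719 and 767 CPM and 849, 1039 and 955 CPM. EIF3L TE rose by 0.76 (SE 0.14, edgeR adjusted p 0.0132) and RPLP0 TE by 0.82 (SE 0.15, edgeR adjusted p 0.0140).

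EPB41L1, a band 4.1 protein that links membranes to the cytoskeleton, had flat RNA in SC, at 40.04, 40.2 and 39.9 CPM, and 35.5, 30.4 and 34.3 CPM in SH3. Its footprints rose from 11.04, 10.1 and 12.8 CPM to 26.3, 20.2 and 21.7 CPM, a fold of 2.01, and TE rose by 1.23 (SE 0.24, edgeR adjusted p 0.0140). The RNA calls of EPB41L1 (edgeR adjusted p 0.0445) and RPL10A (0.0480) and the footprint call of RPL6 (0.0454) lay close to the threshold, so these genes would change class with a slightly stricter one. RPL10A RNA overlapped between groups, at 1028, 1094 and 1194 CPM in SC and 834, 1033 and 919.8 CPM in SH3.

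The other 6 opposed genes had higher RNA and lower footprints. DCAF10, a substrate receptor of CUL4 ubiquitin ligases, had RNA at 77.4, 67.6 and 72.0 CPM in SC and 92.4, 101 and 96.8 CPM in SH3, and footprints at 36.9, 43.0 and 51.0 CPM in SC and 35.1, 31.2 and 28.0 CPM in SH3. DCAF10 groups did not overlap in either measure, and TE changed by -0.90 (SE 0.18, edgeR adjusted p 0.0184). OAF RNA stood at 61.1, 67.0 and 61.7 CPM in SC and 77.8, 88.4 and 71.0 CPM in SH3, against footprints of 15.9, 14.3 and 15.3 CPM and 8.78, 5.48 and 10.5 CPM, with a TE change of -1.22 (SE 0.23, edgeR adjusted p 0.0140). RAB5C, a GTPase of early endosomes, and SCAND1, a SCAN-domain protein, were named after their values were seen and changed by -0.80 and -0.86 in TE. RAB5C RNA was called narrowly (edgeR adjusted p 0.0486). MRPL20, a mitochondrial ribosomal protein, and RER1, a receptor that retrieves membrane proteins to the endoplasmic reticulum, were opposed without a TE call, at edgeR adjusted p-values of 0.0780 and 0.0862.

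**Figure D3:**
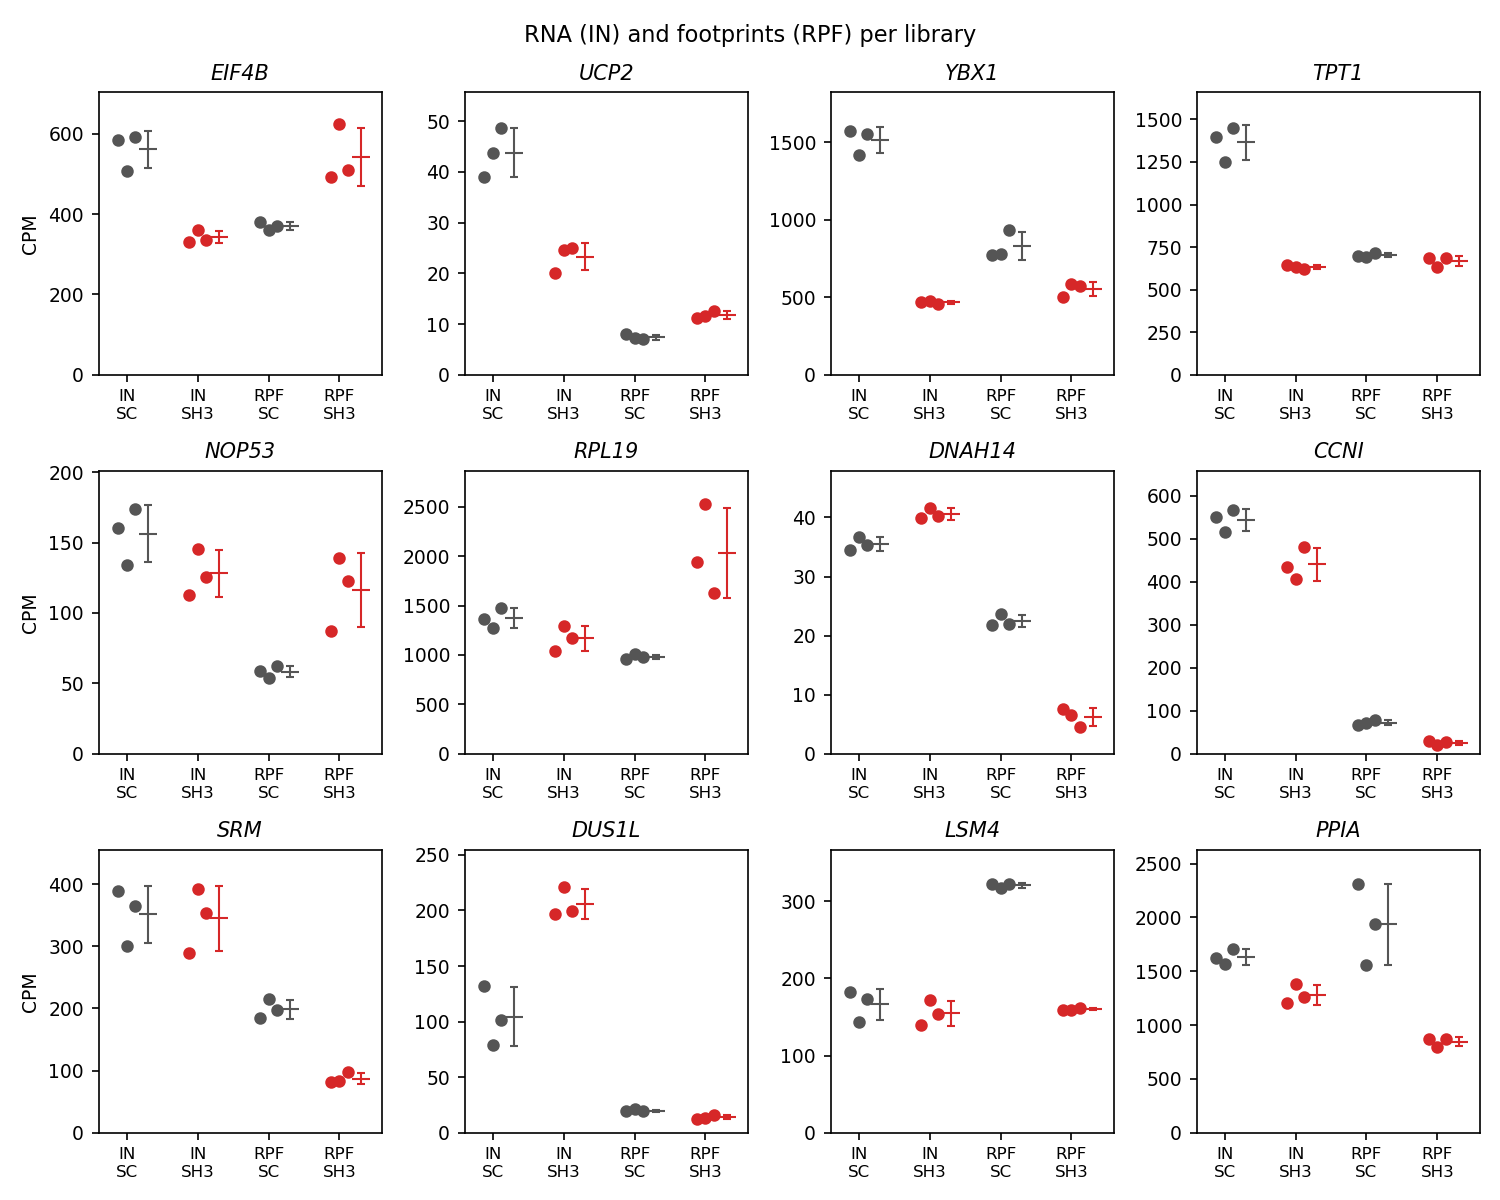
RNA (IN) and footprints (RPF) of 12 genes in each SC (grey) and SH3 (red) library, in CPM scaled within each library kind; the bar beside the points is the mean with SD of 3 replicates. EIF4B and UCP2 cross over (lower RNA, higher footprints), TPT1 keeps its footprints while RNA falls, and DNAH14, SRM and LSM4 lose footprints at similar RNA.

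Footprints rose at RNA that was not called in 13 genes. RNA of NOP53, KMT2A and RPL19 leaned lower near the threshold, at edgeR adjusted p-values of 0.0538, 0.0717 and 0.0773. With a looser threshold these genes would change class. NOP53, an assembly factor of the large ribosomal subunit, had RNA at 160.4, 134 and 174 CPM in SC and 113, 146 and 126 CPM in SH3, overlapping. NOP53 footprints stood at 58.9, 53.9 and 62.1 CPM in SC and 87.2, 139 and 122 CPM in SH3, with no overlap, and TE rose by 1.30 (SE 0.22, edgeR adjusted p 0.00508). RPL19 was the ribosomal protein of this class, with overlapping RNA at 1364, 1272 and 1479 CPM in SC and 1035, 1295 and 1172 CPM in SH3. Its footprints went from 962, 1006 and 978 CPM to 1942, 2523 and 1630.1 CPM, a fold of 2.07, and TE rose by 1.30 (SE 0.20, edgeR adjusted p 0.00274). PPP1R15B, a regulatory subunit of the phosphatase that acts on eIF2 alpha, had RNA at 182, 149 and 165 CPM in SC and 159.5, 156 and 155 CPM in SH3. PPP1R15B footprints stood at 86.5, 121 and 93.4 CPM in SC and 151, 177 and 151 CPM in SH3, and its TE change of 0.78 (SE 0.16, edgeR adjusted p 0.0250) was lost in 8 of 15 alternatives, with adjusted p-values up to 0.261.

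BCL2L11, which encodes the pro-apoptotic protein BIM, had the highest called TE change, 2.11 (SE 0.44, edgeR adjusted p 0.0236), on few reads. BCL2L11 RNA stood at 4.82, 3.83 and 5.00 CPM in SC and 6.04, 4.61 and 4.75 CPM in SH3, and footprints at 2.11, 1.69 and 0.533 CPM and 8.20, 5.48 and 7.36 CPM. These footprints were 13, 4 and 3 counts in SC and 14, 16 and 21 counts in SH3. RNA overlapped and footprints did not, and the call was lost in 7 of 15 alternatives, with adjusted p-values up to 0.197. SH2B1, an adaptor of receptor tyrosine kinases, went from 5.20, 4.21 and 4.62 CPM in footprints to 12.9, 10.3 and 10.9 CPM at RNA of 21.6, 24.8 and 22.9 CPM in SC and 25.8, 21.7 and 22.4 CPM in SH3 (TE change 1.22, SE 0.27, edgeR adjusted p 0.0377). KMT2A, a histone H3 lysine methyltransferase, had footprints at 18.02, 13.9 and 19.9 CPM in SC and 26.9, 29.1 and 27.3 CPM in SH3 and RNA at 177, 173 and 182 CPM and 152, 124 and 170.1 CPM, with a TE change of 0.91 (SE 0.21, edgeR adjusted p 0.0416).

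Footprints fell at RNA that was not called in 15 genes. RNA of GBA2, among them, leaned higher near the threshold (edgeR adjusted p 0.0609). DNAH14, a heavy chain of axonemal dynein, had RNA at 34.4, 36.8 and 35.4 CPM in SC and 39.9, 41.7 and 40.2 CPM in SH3. DNAH14 footprints stood at 21.8, 23.6 and 22.0 CPM in SC and 7.61, 6.51 and 4.56 CPM in SH3, from 13, 19 and 13 counts. RNA was slightly higher in every SH3 library without a call, footprints fell to 0.277 of SC, and TE changed by -2.06 (SE 0.25, edgeR adjusted p 0.000302). SRM, the spermidine synthase of the polyamine pathway, had overlapping RNA at 389, 301 and 365 CPM in SC and 289, 393 and 353 CPM in SH3. SRM footprints went from 184, 214 and 197 CPM to 81.4, 82.5 and 97.1 CPM, and TE changed by -1.14 (SE 0.21, edgeR adjusted p 0.0122). LSM4, a subunit of the Sm-like ring of mRNA decay and splicing, was named after its values were seen. LSM4 footprints were even within groups, at 322, 317 and 323 CPM in SC and 159, 159.6 and 162 CPM in SH3, at RNA of 182, 143 and 174 CPM and 139.7, 172 and 154 CPM, and TE changed by -0.89 (SE 0.15, edgeR adjusted p 0.00906).

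WDR45B, a phosphoinositide-binding protein of autophagy named after its values were seen, had RNA at 153, 140.2 and 157 CPM in SC and 145, 153 and 149.5 CPM in SH3. WDR45B footprints fell from 58.8, 67.4 and 50.2 CPM to 26.3, 27.4 and 27.0 CPM, with a TE change of -1.09 (SE 0.16, edgeR adjusted p 0.00152). PSMA3, an alpha subunit of the proteasome core, had footprints at 482, 498 and 516 CPM in SC and 312, 279 and 283 CPM in SH3, at RNA of 175, 191 and 196 CPM and 176, 184 and 173 CPM. PSMA3 TE changed by -0.69 (SE 0.15, edgeR adjusted p 0.0363), lost in 7 of 15 alternatives with adjusted p-values up to 0.289. CAMK2N1, an inhibitor of calcium/calmodulin-dependent kinase II, fell from 68, 17 and 36 footprint counts in SC to 1, 6 and 3 in SH3 (TE change -2.37, SE 0.45, edgeR adjusted p 0.0140). GNG10, a G protein gamma subunit (-1.67), GBA2, the non-lysosomal glucosylceramidase (-1.47), and KIF1C, a kinesin motor (-1.12), were the others of this class at the lower end.

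Intensified genes moved in RNA and further in footprints. NOP56, which sits beside fibrillarin in the core of box C/D ribonucleoproteins, had RNA at 292, 305 and 325 CPM in SC and 367, 428 and 407 CPM in SH3. NOP56 footprints rose from 229, 171 and 172 CPM to 421, 506 and 488 CPM, folds of 1.30 in RNA and 2.47 in footprints, with no overlap in either. NOP56 TE rose by 0.93 (SE 0.17, edgeR adjusted p 0.0122). UBN2, a subunit of the HIRA histone chaperone complex, and ARMCX4 rose by 1.23 and 1.88, both on few footprints. ARMCX4 had 7, 1 and 9 footprint counts in SC and 15, 14 and 15 in SH3, and lost its call in 10 of 15 alternatives (edgeR adjusted p 0.0498, up to 0.346). ASH1L, a histone H3 lysine methyltransferase, had footprints at 40.9, 35.8 and 32.5 CPM in SC and 88.4, 76.4 and 69.1 CPM in SH3 and a TE change of 0.79 (SE 0.19, edgeR adjusted p 0.0498).

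On the falling side, CCNI, which encodes cyclin I, had RNA at 552, 516 and 566 CPM in SC and 434, 406 and 481 CPM in SH3. CCNI footprints fell from 66.9, 70.8 and 78.1 CPM to 28.7, 19.5 and 26.3 CPM, and TE changed by -1.24 (SE 0.18, edgeR adjusted p 0.00152). CCNG2, which encodes cyclin G2, had RNA at 46.9, 60.3 and 59.8 CPM in SC and 14.6, 13.1 and 14.02 CPM in SH3, and footprints at 31.2, 32.0 and 20.1 CPM and 2.34, 2.40 and 2.45 CPM, from 4, 7 and 7 counts in SH3. CCNG2 TE changed by -1.49 (SE 0.35, edgeR adjusted p 0.0469), a call lost in 9 of 15 alternatives with adjusted p-values up to 0.289. CHPT1, a cholinephosphotransferase of phospholipid synthesis, changed by -1.13. PPIA and TXN, of the same class, were named after their values were seen. PPIA, the peptidyl-prolyl isomerase cyclophilin A, had RNA at 1620.0, 1569 and 1708 CPM in SC and 1202, 1378 and 1260.2 CPM in SH3, and footprints at 2311, 1561 and 1937 CPM and 873, 798 and 867 CPM. TXN, the thiol reductase thioredoxin, had RNA at 464, 422 and 498 CPM and 259, 303 and 266 CPM, and footprints at 1037, 1062 and 1081 CPM and 423, 402 and 373 CPM. TE changed by -0.84 in PPIA (SE 0.17, edgeR adjusted p 0.0215) and by -0.66 in TXN (SE 0.14, edgeR adjusted p 0.0342).

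The functions were described with 39 gene lists, of which 16 held a called gene. Of the 86 called genes, 37 were in a list and 49 in none. Beside the list counts given here and below, 0.375% of all genes tested were called higher and 0.311% lower. Cytosolic ribosomal proteins held the largest number of calls. Of 33 proteins of the small subunit 7 had higher TE and 0 lower, with a median TE change of 0.46, and of 51 of the large subunit 12 had higher TE and 0 lower, with a median of 0.52, beside -0.0444 over all genes. Over both subunits 73 of 84 lay above 0. At p under 0.05 without adjustment 50 were higher and 4 lower, where 5.33% and 7.23% of all genes were. RNA of 76 of 84 was called lower (25.2% of all genes), whereas footprints of 20 of 83 were called lower (19.0% of all genes) and 5 higher (16.9% of all genes). The 4 lower ones were not named by the rule and were read after their values were seen. They were RPL36A (-1.17), RPL39L (-0.98), RPL22L1 (-0.70) and RPL26L1 (-0.38), 3 of which are paralogs of the main gene. Ribosomal protein genes, TPT1, YBX1 and PPIA have processed pseudogenes, and the treatment of reads that match several places is not given in the sources used here, so their counts are uncertain to that extent.

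Per library, the median RNA level of the 60S list was 9.96, 9.86 and 10.03 log2 CPM in SC and 9.33, 9.61 and 9.46 in SH3. The median footprint level was 9.77, 9.65 and 9.76 log2 CPM in SC and 9.65, 9.93 and 9.77 in SH3. RNA medians did not overlap between groups and footprint medians did. The 40S list followed with RNA at 9.82, 9.73 and 9.91 log2 CPM in SC and 9.11, 9.35 and 9.17 in SH3, and footprints at 9.73, 9.57 and 9.64 against 9.45, 9.65 and 9.48. These medians are shares of each library, so less RNA of these genes per cell and more of others cannot be told apart. The list medians of TE kept their sign in every alternative, between 0.28 and 0.53 for 40S and between 0.48 and 0.59 for 60S. The calls did not: without SC replicate 3 each list had 1.

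Elongation factors and other TOP mRNAs had 3 of 22 called higher (0.375% of all genes) and 0 lower, with a median TE change of 0.44. At p under 0.05 without adjustment 13 were higher, where 5.33% of all genes were. The called members were EIF4B, TPT1 and EIF3L. The list's RNA median was lower in each SH3 library, at 9.48, 9.30 and 9.50 log2 CPM in SC and 8.97, 9.13 and 8.99 in SH3. Its footprint median was 9.55, 9.59 and 9.50 log2 CPM in SC and 9.78, 9.73 and 9.56 in SH3, overlapping. Initiation factors outside this list had 0 of 37 called, with 1 higher and 4 lower at p under 0.05 without adjustment, shares near the 5.33% and 7.23% of all genes. Their TE median was -0.0486 and turned to 0.0355 without SC replicate 1, with EIF5B, a subunit-joining GTPase, at 0.45 and EIF6, an anti-association factor of the large subunit, at -0.65 as the ends.

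**Figure D4:**
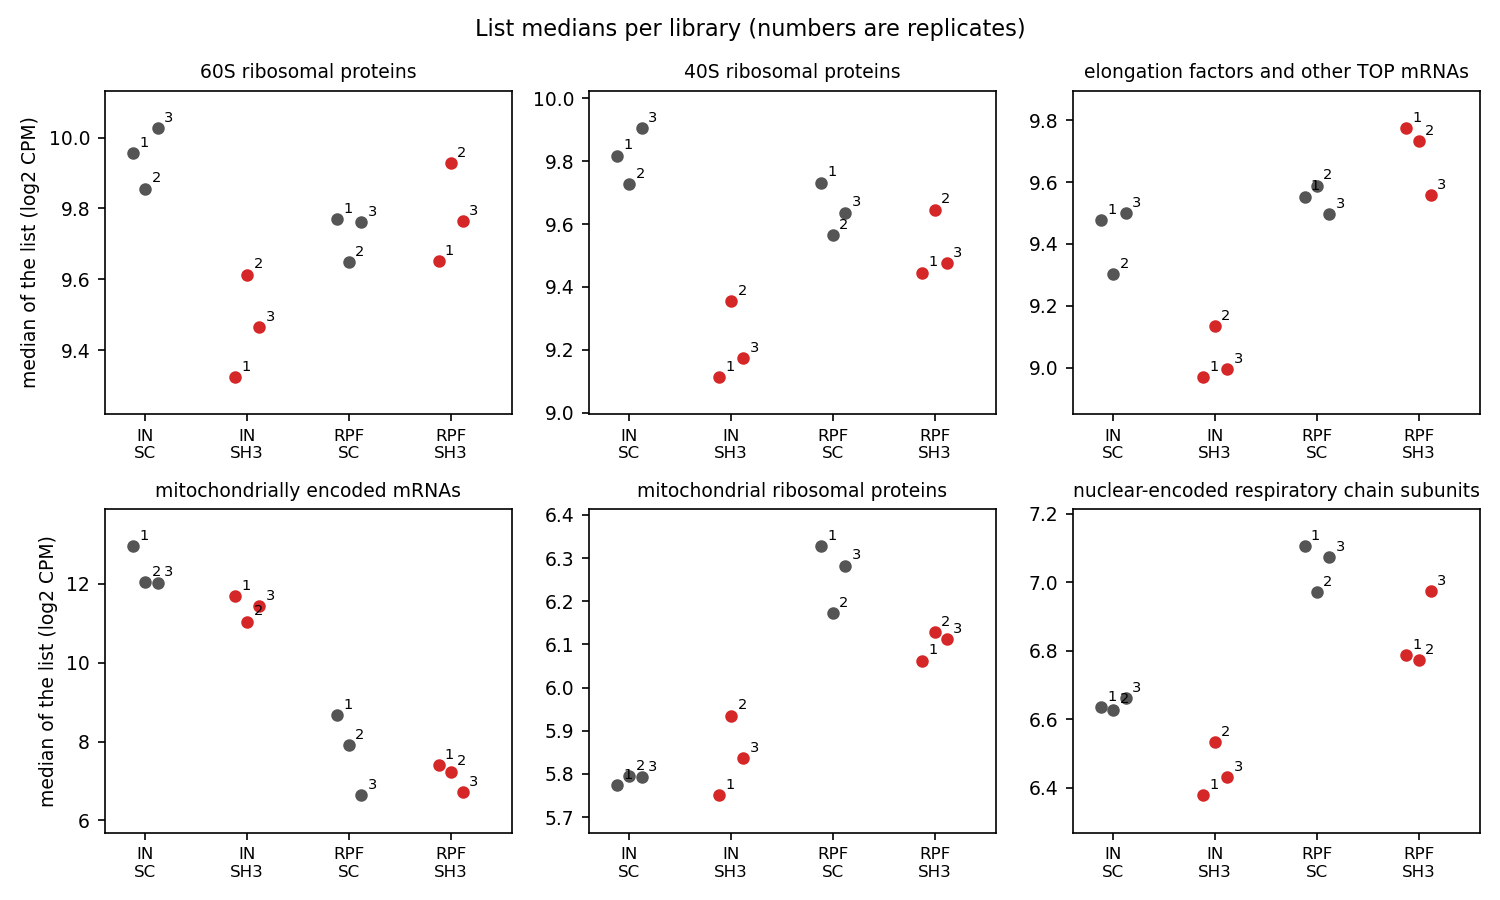
Median level of 6 gene lists in each library (log2 CPM, vertical axis; grey SC, red SH3; small numbers are replicates). For the ribosomal protein and TOP lists RNA medians separate and footprint medians meet, and for the mitochondrially encoded mRNAs the 3 SC footprint libraries spread from 8.67 to 6.63.

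Genes that build ribosomes moved little in TE as groups. Their lists held 1 call or none, where 0.686% of all genes were called. Box C/D and H/ACA proteins had 1 of 18 called, NOP56, with a median of -0.0398. Assembly and export factors of the large subunit had 1 of 61 called, NOP53, with a median of -0.0531, and factors of the small subunit 0 of 51, with a median of -0.0720. Their RNA medians were 0.24 and 0.25 on the log2 scale, higher than the 0.0336 of all genes. Enzymes that modify tRNA and rRNA had 1 of 63 called, DUS1L, with 7 lower and 0 higher at p under 0.05 without adjustment, the first near the 7.23% of all genes. The median was -0.12, and -0.0288 without SC replicate 1. RNA polymerase I subunits and nucleolar scaffold proteins had 0 of 25 called and a median of -0.0305. Without SC replicate 1 that median was 0.0908 and that of the large subunit factors 0.0186.

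Lists that leaned toward lower TE held few calls, where 0.311% of all genes were called lower. Of 77 mitochondrial ribosomal proteins 66 lay below 0, where 6871 of all 12531 genes did, with 0 called and 14 lower at p under 0.05 without adjustment, where 7.23% of all genes were. The list's RNA median was 5.77, 5.80 and 5.79 log2 CPM in SC and 5.75, 5.94 and 5.84 in SH3, and its footprint median 6.33, 6.17 and 6.28 in SC and 6.06, 6.13 and 6.11 in SH3. RNA overlapped and footprint medians were lower in every SH3 library. The TE median was -0.20, between -0.22 and -0.16 over the alternatives. MRPL10 had the highest value (0.37) and MRPL20 the lowest (-0.79) among members with a mean of 10 or more footprint counts, and neither was called. Nuclear-encoded subunits of the respiratory chain had 58 of 76 below 0, 0 called and a median of -0.17, between NDUFC2 at -1.06 and NDUFA13 at 0.48. Proteasome subunits had 36 of 44 below 0, 1 called (PSMA3) and a median of -0.17. Cytosolic aminoacyl-tRNA synthetases and their scaffold proteins had 19 of 23 below 0, 0 called and a median of -0.20, between QARS1 at 0.42 and AIMP2, a scaffold of the multi-synthetase complex, at -0.74. That median was -0.29 without SC replicate 1 and -0.096 without SC replicate 2. The lowest median of the 39 lists, -0.28, was that of calpains and regulators, with 9 of 10 below 0 and 1 called (CAPN15). Glycolysis and hypoxia genes had 26 of 34 below 0, 0 called and a median of -0.16. Lysosome and autophagy genes had 39 of 53 below 0, 0 called and a median of -0.13. This last median turned to 0.066 without SC replicate 2.

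The 13 mitochondrially encoded mRNAs, which are read by mitochondrial ribosomes, lay above 0 in TE, with 0 called and 0 at an unadjusted p-value under 0.05 in edgeR and 0 called in DESeq2. The lowest, MT-CO3 at 0.0065, was below 0 in 4 of the 6 fits that left out a replicate, down to -0.323. Their RNA was called lower in 13 of 13, where 25.2% of all genes were. MT-ND2, a subunit of complex I, had RNA at 11479, 5927 and 5904 CPM in SC and 3255, 2384 and 2861 CPM in SH3. MT-ND2 footprints stood at 334, 241 and 95.7 CPM in SC and 159, 178 and 122 CPM in SH3. RNA separated the groups and footprints overlapped, with a TE change of 0.92 (SE 0.45, edgeR adjusted p 0.404). The list's footprint median was 8.67, 7.91 and 6.63 log2 CPM in the SC libraries and 7.40, 7.23 and 6.71 in SH3, a wide spread within SC. The TE median of 0.42 ran from 0.17 without SC replicate 3 to 0.71 without SC replicate 2.

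**Figure D5:**
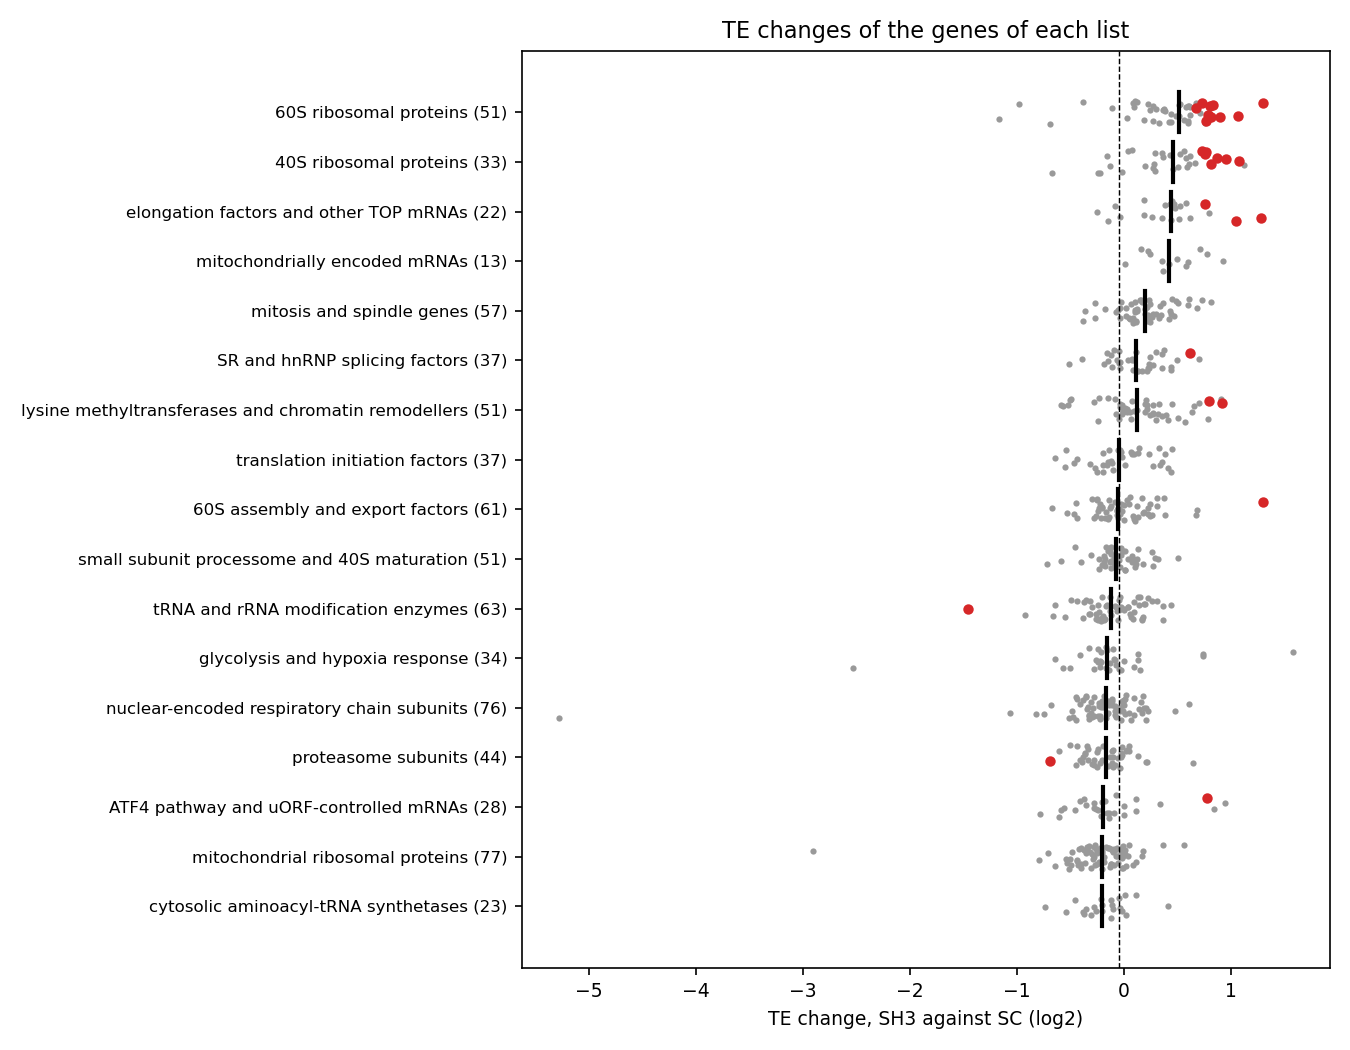
TE changes (log2, SH3 against SC, horizontal axis) of the members of 17 gene lists, with the number tested in brackets; red points were called, black bars are list medians and the dashed line is the median of all genes, -0.0444. The ribosomal protein and TOP lists have medians of 0.44 to 0.52, and the lists at the bottom medians near -0.20.

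Genes of cell division fell together in RNA and footprints with no TE call. Of 57 mitosis and spindle genes 53 were called lower in RNA and 46 in footprints, where 25.2% and 19.0% of all genes were. The RNA median was -1.22 and the footprint median -1.06. Their TE median of 0.20 depended on SC replicates 1 and 2, with -0.0076 without SC replicate 2 and 0.45 without SC replicate 1. Replication-dependent histones had 0 of 43 called in TE, with medians of -1.33 in RNA and -1.33 in footprints. DNA replication genes had 0 of 49 called, with medians of -0.45 in RNA, -0.58 in footprints and -0.0573 in TE. Both TE medians also turned sign with these replicates, from -0.376 without SC replicate 2 to 0.363 without SC replicate 1 for the histones and from -0.15 to 0.105 for DNA replication.

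Other lists held 1 or 2 calls each, where 0.686% of all genes were called. In the polyamine pathway SRM was called of 11, with AZIN1, an antizyme inhibitor, at 0.49 and AMD1, S-adenosylmethionine decarboxylase, at 0.57, both read after their values were seen and neither called. Among lysine methyltransferases and chromatin remodellers KMT2A and ASH1L were called of 51, with 11 higher and 5 lower at p under 0.05 without adjustment, where 5.33% and 7.23% of all genes were, and a median of 0.12, which ran from 0.012 to 0.31 over the alternatives. In the BCL2 family BCL2L11 was called of 16, among mRNAs of the ATF4 pathway and of uORF control PPP1R15B of 28, and among splicing factors HNRNPH2 of 37. The ATF4 list leaned lower, with 21 of 28 below 0 and a median of -0.19. At p under 0.05 without adjustment 7 splicing factors were higher and 1 lower, beside the same 5.33% and 7.23% of all genes. Dyneins and kinesins had 2 of 44 called, DNAH14 and KIF1C, and 24 lay above 0. Iron-responsive mRNAs had 0 of 13 called. FTH1, the ferritin heavy chain, had a TE change of 0.90 (SE 0.22, edgeR adjusted p 0.0630) and TFRC, the transferrin receptor, one of -0.43 (SE 0.20, edgeR adjusted p 0.380). FTH1 RNA was lower in every SH3 library, at 1419.6, 1205 and 1343 CPM in SC and 940.5, 920.3 and 960.4 CPM in SH3, with overlapping footprints of 319, 209 and 174 CPM and 312, 332 and 284 CPM. TFRC was lower in both measures, with RNA at 401, 364 and 372 CPM in SC and 219, 203 and 194 CPM in SH3 and footprints at 551, 871 and 717 CPM and 329, 274 and 249 CPM. The 22 lists of more than 1 tested gene without a called member had TE medians between -0.20 and 0.42.

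The second hairpin, SH2, was set beside SH3 for the 8 genes that kept their calls in all alternatives. Both comparisons share the SC libraries, so a chance deviation in SC moves both the same way. TE changed by 0.50 in SH2 and 1.30 in SH3 for RPL19, by 0.89 and 1.28 for EIF4B, by 0.70 and 1.12 for YBX1, by 1.05 and 1.05 for TPT1 and by 1.06 and 0.95 for RPS4X. It changed by -1.09 and -1.24 for CCNI, by -2.08 and -2.06 for DNAH14 and by -0.58 and -1.09 for WDR45B. RPL19 was not called in SH2 (edgeR adjusted p 0.176), and the others were. Of all 86 genes called in SH3, 52 were called in SH2 the same way and 0 the opposite way. Those not called in SH2 included BCL2L11, CDKN2C, GNG10 and CCNG2, at edgeR adjusted p-values of 0.184, 0.550, 0.562 and 0.779. CCNG2 TE changed by -0.18 in SH2 and -1.49 in SH3. The direct test of SH3 against SH2 called 0 of the 86 genes in edgeR, with 26 at an unadjusted p-value under 0.05, where 11.7% of all genes were and 2 of all 12531 were called (0.0160%). Among these 26 were RPL19, WDR45B, YBX1 and EIF4B, at unadjusted edgeR p-values of 0.00063, 0.0050, 0.0091 and 0.0191. The 86 genes had been chosen on the SH3 libraries that this test uses, so their share is a description. The difference between hairpins was thus not shown for any single called gene, which does not show that the hairpins act alike.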

How the data were processed

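Gene-level counts of input RNA and footprints for 17017 gene symbols were deposited by the authors as raw counts. Bowtie 1.2.2 and DESeq2 are named per the submitters' processing notes. The genome build, annotation and counting rule are not given in the sources used here. The authors' 18 normalized columns and their ribosome density columns were not used.

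Counts were analysed with edgeR 4.0.16 in R 4.3.3 (filterByExpr, with TMM factors and the spread estimated over all 18 libraries). TE was the contrast of SH3 RPF minus SH3 IN against SC RPF minus SC IN, unpaired. RNA and footprints were fitted separately on 9 libraries each, those of SH2 included. Tests were two-sided and quasi-likelihood, and a call needed a Benjamini-Hochberg adjusted p under 0.05. CPM values were scaled by TMM within each library kind. DESeq2 1.42.0, other scalings, filters, blocks and leaving out each replicate were alternatives.

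Members and lists were chosen with earlier results of these data known. Named by rule were FBL, the 15 highest and 15 lowest called TE changes with a mean of 10 or more footprint counts, the 8 buffered and 8 opposed genes with the lowest TE p, and up to 8 called members of each list described, or its extremes. The other genes are said to be named after their values were seen, or stand as examples of those counts.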

Additional observations from a re-analysis of the deposited data

How the results depend on the processing

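Counts of calls depended on the processing. The DESeq2 Wald test called 349 genes (163 higher, 186 lower) and placed 128 as buffered. Fitting only the SC and SH3 libraries called 46 (25 higher, 21 lower), with 19 buffered. With the lysate as a replicate block 23 were called (14 higher, 9 lower), with 11 buffered, and with the replicate number as a replicate block 94 were called and 42 were opposed. Deviations of same-numbered IN and RPF libraries correlated in SH3 (0.51, 0.39 and 0.24) and in replicate 3 of SC (0.31) and SH2 (0.56). In SC replicates 1 and 2 they did not (-0.53 and -0.53), where SC 1 IN went with SC 2 RPF (0.66) and SC 2 IN with SC 1 RPF (0.49), and SH2 showed the same exchange (0.62 and 0.56). The numbers were therefore not used as pairs, no exchanged pairing was fitted, and the fits with a block or with a numbered replicate left out may join libraries of different lysates. Footprints thinned to 1 depth gave 23 lower and 7 opposed. An adjusted p under 0.01 gave 13 calls (8 higher, 5 lower), an absolute change of at least 1 gave 35 (17 higher, 18 lower), an unadjusted p under 0.05 gave 1574 (668 higher, 906 lower), and an adjusted p under 0.1 gave 50 buffered and 49 opposed. Leaving out each replicate gave 10 to 244 calls, 5 to 130 higher, 3 to 114 lower, 3 to 67 buffered and 3 to 35 opposed. The test of SH3 against SH2 called 0 to 5 genes when replicates were left out and 2 with no filter. MT-CO3 (-0.323 to 0.761 over replicates left out) turned to -0.0737 without SC replicate 2, -0.323 without SC replicate 3, -0.0619 without SH3 replicate 1 and -0.113 without SH3 replicate 2, and TRIM22 (-1.04 to 0.424) to 0.424 without SC replicate 1; neither was called. The cause of these shifts was not tested. Counts for RNA and footprints stayed within 1.5 times. Footprint depth limits the genes at few counts, such as BCL2L11, ARMCX4, CAMK2N1 and COL5A2.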
